A study of Mus musculus and Rattus norvegicus with 11 samples.

Results

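The cells described here are the 2203 cells of NOD control mice that the deposited annotation names nmSC, a name that the sources used here do not spell out. They were chosen by that name and by the library number in the cell barcode, and they are 982, 648 and 573 cells of NOD control libraries 1, 2-1 and 2-2. All annotated NOD control cells number 5347, and all annotated mouse cells of the series 15672. The study made droplet 3′ single-cell RNA libraries (10x, version 2 chemistry) of peripheral nerve, the sciatic nerve and brachial plexus, after enzymatic digestion, myelin removal and a sort of live cells. Libraries came from NOD control mice, from NOD mice whose genotype label is ICAM-1-1/-NOD, called here the libraries labelled Icam1 knockout, and from C57BL/6 mice, with 3 libraries each. Mice of the inbred NOD strain tend to autoimmune disease, and the series set the NOD mice up for chronic autoimmune neuritis and the C57BL/6 mice as healthy nerve. No treatment, age or sex is given here, and the labels do not say that libraries came from separate animals, so p-values measure only the spread between libraries, which may be technical.

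The connective tissue of a nerve has 3 layers. Epineurial fibroblasts form the outer sheath, perineurial cells wrap each fascicle in a barrier, and endoneurial fibroblasts lie between the axons and their Schwann cells. Fibroblasts secrete collagens and proteoglycans, while Schwann cells express the transcription factor Sox10 and, where they myelinate, the proteins of the myelin sheath.

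The nmSC cells of NOD control nerve carried the RNA of endoneurial fibroblasts and little RNA of Schwann cells. The 12 genes of an endoneurial fibroblast list summed to 54625, 36808 and 42915 CPM (the UMIs of a gene per 1e+06 UMIs of the cell set) in nmSC of libraries 1, 2-1 and 2-2. Pooled over the libraries, they summed to 14371 CPM in the cells named EP, 12858 CPM in those named fibro and 9401 CPM in those named mySC. In nmSC 9 of the 12 genes were above every other type with at least 50 cells, while Sox9, Wif1 and Etv1 were higher in EP. Apod and Apoe made up 30736 and 11366 CPM of the pooled nmSC sum of 46565 CPM. That list holds the 4 marker genes given for these cells and was assembled with results of these data known, so its height is a description. The 8 genes of a general Schwann cell list summed to 214, 354 and 261 CPM in nmSC and to 5958 CPM in mySC. Erbb3, the Schwann cell receptor for neuregulin, was at 0 in nmSC, and Sox10 was at 3.76, 11.1 and 12.7 CPM, against 390 CPM in mySC. The name nmSC is kept below as the label of the annotation only.

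Depth was modest. The nmSC cells held 797617, 452488 and 551974 UMIs in NOD control libraries 1, 2-1 and 2-2, with medians of 736, 605 and 818 UMIs and 453, 394 and 508 genes per cell. The 3 counts that a count of 0 still allows stand for 3.76, 6.63 and 5.44 CPM, for counting error alone. Cells under 500 UMIs numbered 134, 169 and 51 and were left out wherever cells were thinned to 500 UMIs. Pairs of mouse libraries shared 0 to 15 cell barcodes, and pairs of NOD control libraries 2 to 6. Mitochondrial genes took 0.637% of nmSC UMIs in library 1, against 2.45% and 2.32% in libraries 2-1 and 2-2.

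The 4 marker genes were Apod, a lipid-binding lipocalin, Kcnk2, a background potassium channel, Apoe, a lipoprotein component, and Angptl7, a secreted angiopoietin-like protein. Apod (chr16:31296192-31314808 in GRCm38, minus strand) was at 36029, 23081 and 29364 CPM in nmSC of libraries 1, 2-1 and 2-2, a mean of 29491 ± 6475 CPM (SD, n = 3 libraries). The next type was EP, a name not spelled out in the sources used here, at 6822 CPM, and fibro was at 2567 CPM. Every nmSC library was above every other NOD control type. Kcnk2 (chr1:189207930-189402273, minus strand) was at 217, 192 and 178 CPM in nmSC, against 25.9 CPM in EP and 9.53 CPM in fibro. Angptl7 (chr4:148495183-148500460, minus strand) was at 2343, 1459 and 1337 CPM, against 208 CPM in EP and 79.4 CPM in fibro. Both genes were thus several-fold higher in each nmSC library than in any other type. Apoe (chr7:19696109-19699188, minus strand) did not set nmSC apart. It was at 13767, 9503 and 9424 CPM in nmSC, against 10073 CPM in the cells named MC, 9698 CPM in fibro and 7576 CPM in mySC.

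**Figure D1:**
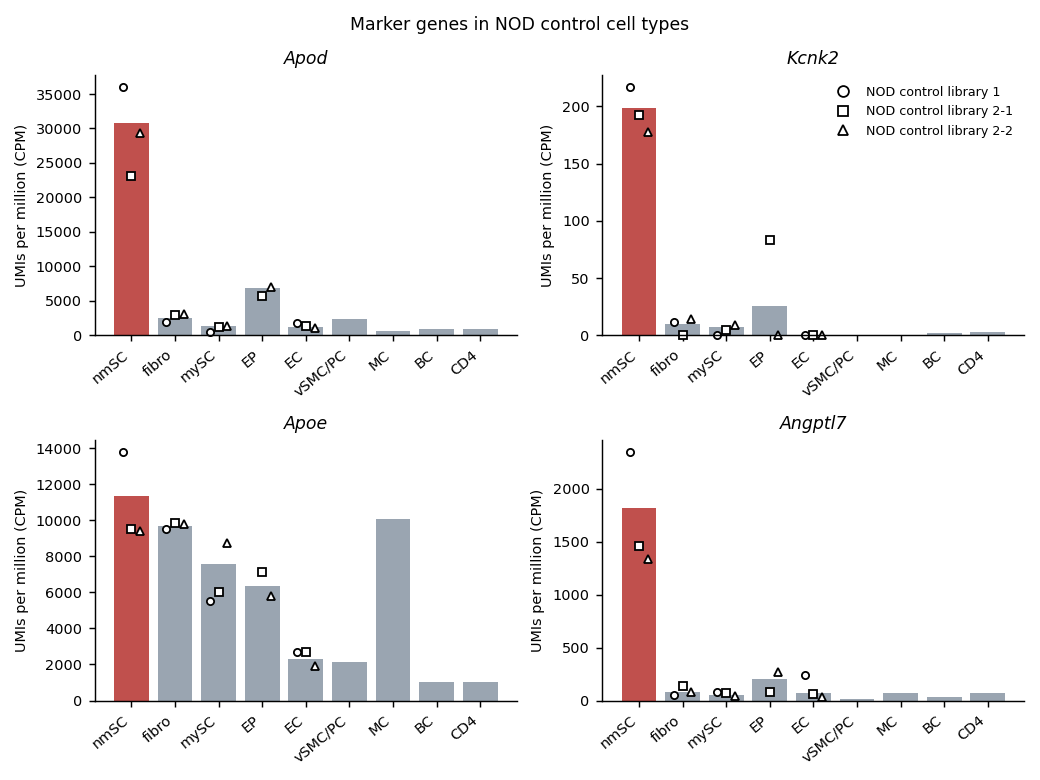
CPM (linear axis) of the 4 marker genes in NOD control cell types with at least 50 cells. Bars pool the libraries and points are single libraries with at least 20 cells of the type; Apod, Kcnk2 and Angptl7 stand highest in nmSC in each library, while Apoe is at a like level in fibro and MC.

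Detection per cell followed the same order. Thinned to 500 UMIs, 99.3%, 97.9% and 98.7% of nmSC cells in libraries 1, 2-1 and 2-2 had an Apod UMI, against 31.7%, 59.9% and 61.5% of fibro cells. B cells (named BC), which should lack Apod, had it in 30.5% and 36.3% of cells in libraries 2-1 and 2-2, so shares of that size there do not by themselves show expression. Library 1, with 7 B cells, gave no such value, and the source of these UMIs was not tested. Kcnk2 was found in 10.3%, 7.52% and 9.20% of nmSC cells, against 0.459%, 0% and 0% of fibro cells. Angptl7 was found in 39.7%, 31.7% and 26.8% of nmSC cells and Osr2 in 28.7%, 21.7% and 18.6%, against 3.39% and 1.49% of B cells for Angptl7 and 1.69% and 0.595% for Osr2. Without thinning, Apod was found in 99.4%, 99.2% and 98.8% of nmSC cells.

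Beyond these markers, genes with the highest ratio of nmSC to the next NOD control type encoded transcription, matrix and signalling proteins. Of 1202 genes at 100 CPM or more in nmSC of each library, 253 were above every one of the 8 other types with at least 50 cells, 51 by a ratio over 2 and 10 by a ratio over 5 with 10 CPM added to both. Osr2 (chr15:35296098-35303305, plus strand), a zinc finger transcription factor, led at 767, 524 and 527 CPM, against 38.1 CPM in fibro, a ratio of 13.4. Enpp2, the enzyme autotaxin that makes lysophosphatidic acid, was at 1078, 685 and 794 CPM, against 69.9 CPM in fibro. Col15a1, a basement membrane zone collagen, was at 1570, 1238 and 1406 CPM, against 130 CPM in EP. These leading genes were chosen by this ratio, which is therefore no test.

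Cell surface and secreted regulators were also among the 20 leading genes. Gpc3, a glypican that binds Hedgehog and Wnt ligands, was at 6467, 4782 and 4442 CPM in nmSC, against 1002 CPM in fibro. Gfra1, the receptor for glial cell line-derived neurotrophic factor, was at 149, 144 and 141 CPM, against 33.4 CPM in mySC. Smoc2, a matricellular calcium-binding protein, was at 4856, 2482 and 2652 CPM, against 908 CPM in EP. The remaining leading genes were Lum, 6030408B16Rik, Crispld2, Cst6, Plxdc1, Cpxm2, Myoc, Col8a1, Podn, Lama2 and Ctsk, besides Apod, Kcnk2 and Angptl7.

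Markers of the other nerve sheaths were low in nmSC. The 12 epineurial genes summed to 2253, 2181 and 2279 CPM in nmSC and 16819 CPM in fibro, and 0 of 12 were higher in nmSC than in fibro. Pi16, an epineurial and adventitial fibroblast marker, was at 23.8, 59.7 and 70.7 CPM, against 3051 CPM in fibro. Dpt, the matrix protein dermatopontin, was at 22.6, 35.4 and 32.6 CPM, against 1204 CPM in fibro. The 10 perineurial genes summed to 209, 192 and 219 CPM in nmSC, against 6615 CPM in EP, and Lypd2 was at 0. Of these genes 7 were above fibro and 3 below. Ptch1 was at 86.0 CPM in pooled nmSC, 11.1 CPM in fibro and 1245 CPM in EP. Dlk1 was the 1 gene above every other type, at 31.1 CPM in pooled nmSC, 30.2 CPM in fibro and 0 in EP. Genes that fibroblasts share were high in both, at 118689, 92559 and 88751 CPM in nmSC and 67644 CPM in fibro.

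Nonmyelinating Schwann cell genes were low too. The 8 genes summed to 263, 323 and 277 CPM in nmSC, against 1428 CPM in mySC. Scn7a, a sodium channel of nonmyelinating Schwann cells, was at 94.0, 190 and 150 CPM, against 807 CPM in mySC. Gfap, their intermediate filament, was at 0, 0 and 1.81 CPM in nmSC, but also only at 5.28 CPM in mySC, so it does not separate the 2 types. Ngfr, the low-affinity neurotrophin receptor, was an exception at 160, 106 and 92.4 CPM, against 128 CPM in mySC. Thinned to 500 UMIs, 90.9%, 83.1% and 88.3% of nmSC cells had no UMI of the general Schwann list, against 94.5%, 86.1% and 94.8% of fibro cells and 6.76% and 5.35% of mySC cells in libraries 2-1 and 2-2.

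**Figure D2:**
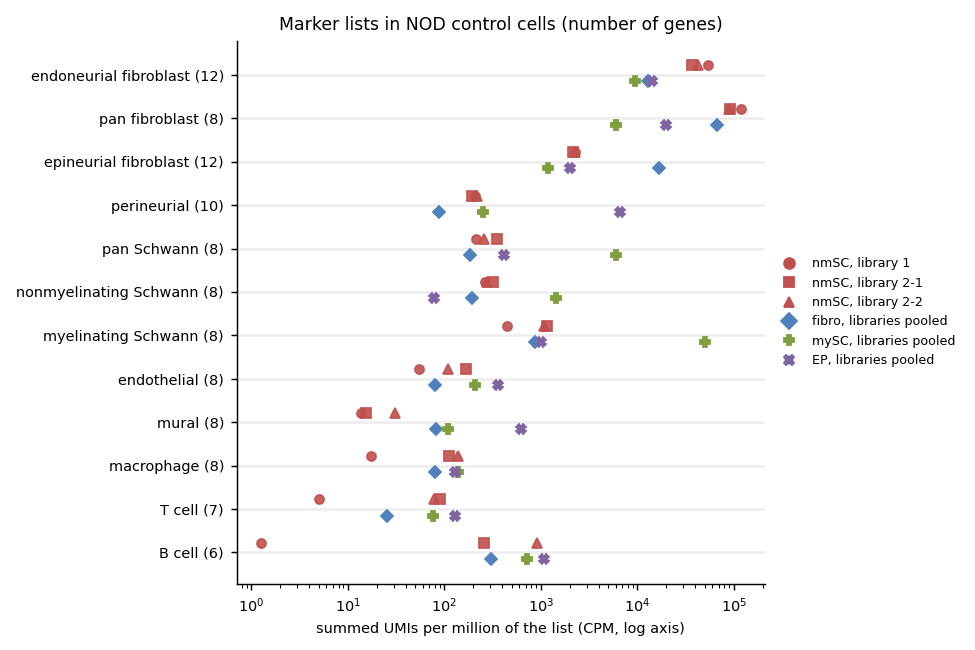
Summed CPM (log axis) of 12 marker lists, with the number of genes in brackets, in nmSC of each NOD control library and in fibro, mySC and EP pooled over libraries. The nmSC points are above fibro, mySC and EP for the endoneurial list and the list of genes that fibroblasts share. They are well below mySC for the 3 Schwann lists, below fibro for the epineurial list and below EP for the perineurial list.

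RNA of other cell types differed between the libraries. Myelinating Schwann genes summed to 449, 1167 and 1069 CPM in nmSC of libraries 1, 2-1 and 2-2, B cell genes to 1.25, 256 and 920 CPM, T cell genes to 5.01, 90.6 and 77.9 CPM and MHC class II genes to 38.9, 959 and 842 CPM. Library 1 was the lowest for each. Macrophage genes summed to 17.6, 113 and 140 CPM with Mrc1 at 0, endothelial genes to 55.2, 168 and 109 CPM, mural genes to 13.8, 15.5 and 30.8 CPM with Kcnj8 at 0, and red cell genes to 1.25, 11.1 and 41.7 CPM. Cells with at least 2 UMIs of another type's list made up 8.55%, 23.5% and 44.3% of nmSC. Whether these UMIs come from free RNA or from doublets was not tested.

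Matrix genes set nmSC apart from fibro in kind as well as in amount. The 16 collagen genes summed to 17213, 17141 and 17256 CPM in nmSC, against 8205 CPM in fibro, and 11 of 16 were above every other type. Col1a1, a chain of the main fibrillar collagen, was at 5241, 5196 and 5176 CPM, against 1691 CPM in fibro. Of 9 small leucine-rich proteoglycans, which bind collagen fibrils, 4 were above fibro and 5 below. Among those above, Dcn was at 51759, 30021 and 32581 CPM, against 11897 CPM in fibro, and Lum at 14527, 22544 and 18905 CPM, against 2174 CPM in fibro. Elastic fibre and matricellular genes were mostly lower in nmSC, with 12 of 16 below fibro. Fbln1, the matrix protein fibulin 1, was at 3.76, 19.9 and 9.06 CPM, against 704 CPM in fibro. Basement membrane genes were partly shared with mySC: Sparc, a collagen-binding glycoprotein, was at 8503, 4683 and 5390 CPM, against 7613 CPM in mySC.

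Lipid and complement genes differed in opposite ways from fibro. All 14 cholesterol synthesis genes were above fibro, and 13 were below mySC with Lss above it, with sums of 1525, 1896 and 1962 CPM in nmSC, against 378 CPM in fibro and 3946 CPM in mySC. Of 13 complement genes 10 were below fibro. C3, the central complement component, was at 55.2, 30.9 and 47.1 CPM, against 1396 CPM in fibro.

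Signalling genes were divided between the types. Of 24 growth factor and binding protein genes 16 were below fibro, among them Igf1, insulin-like growth factor 1, at 191, 254 and 279 CPM, against 1088 CPM in fibro. Ccl11, the eosinophil chemokine eotaxin, was at 2249, 2022 and 2020 CPM, against 805 CPM in fibro, and Il33, an alarmin cytokine, was at 512, 438 and 373 CPM, against 229 CPM. Cxcl13, the B cell chemokine, and Cxcl14, a chemokine of stroma and epithelia, were low in nmSC. Cxcl13 was at 2.51, 4.42 and 1.81 CPM, against 891 CPM in fibro, and Cxcl14 at 107, 57.5 and 63.4 CPM, against 791 CPM. Sfrp4, a secreted Wnt antagonist, was at 5.01, 55.2 and 30.8 CPM, against 1674 CPM in fibro. Ly6a, a surface protein of progenitor-like fibroblasts in mice, was at 407, 480 and 462 CPM, against 4997 CPM in fibro.

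Transcription factors followed this division. Meox1, a homeobox factor, was at 94.0, 68.5 and 72.5 CPM in nmSC and 3.18 CPM in fibro. Foxs1, a forkhead factor, was at 75.2, 57.5 and 65.2 CPM in nmSC and at 0 in fibro. Osr1, the close relative of Osr2, was at 22.6, 26.5 and 16.3 CPM in nmSC and 205 CPM in fibro. Sox9, a factor of chondrogenic and neural crest lineages, was at 186, 248 and 279 CPM in nmSC, 31.8 CPM in fibro and 259 CPM in EP.

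Levels in nmSC were close between libraries 2-1 and 2-2 and less so with library 1. Of the 1202 genes, 0 were past 2-fold either way between 2-1 and 2-2, while 9 were higher and 25 lower in library 1 than in library 2 by over 2-fold. Trf, the iron carrier transferrin, was at 1894 CPM in library 1, against 712 and 761 CPM in 2-1 and 2-2. Ccl2, a monocyte chemokine, was at 194 CPM, against 780 and 569 CPM, and mt-Nd1, a mitochondrial subunit, at 611 CPM, against 2751 and 2718 CPM.

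Among single nmSC cells thinned to 500 UMIs, the variance of a gene divided by its mean had a median of 1.10, 1.09 and 1.07 over 588 genes in libraries 1, 2-1 and 2-2, near the 1 of counting error. It was 6.60, 5.76 and 7.56 for Apod and 4.14, 3.96 and 4.41 for Dcn. For Angptl7 it was 3.85, 3.58 and 4.04 at means of 1.19, 0.770 and 0.669 UMIs per cell. The immediate early gene Fos was at 3.26, 3.28 and 4.02. By mean rank over the 3 libraries the nuclear RNA Malat1 came first, ahead of the actin-severing gelsolin gene Gsn and then Apod, with 8.56, 18.1 and 20.1 for Malat1 and 7.56, 6.71 and 5.42 for Gsn.

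The share of nmSC cells differed widely between NOD control libraries. They made up 70.1% (95% exact binomial interval 67.7 to 72.5%), 32.6% (30.6 to 34.8%) and 29.2% (27.2 to 31.3%) of annotated cells in libraries 1, 2-1 and 2-2. Of cells that are not leukocytes they made up 77.0% in NOD control sample 1 and 46.8% in NOD control sample 2, which joins libraries 2-1 and 2-2, against 22.1%, 34.6% and 39.1% in C57BL/6 samples 1, 3 and 4. On this denominator the groups did not overlap. The difference of means was 30.0 percentage points, with an exact two-sided permutation p of 0.1, the smallest that 2 against 3 samples allow, and it was 14.9 points without NOD control sample 1 and 45.0 points without NOD control sample 2. Of all annotated cells, nmSC made up 70.1% and 30.9% in NOD control samples 1 and 2, against 16.5%, 32.0% and 19.7% in C57BL/6 samples 1, 3 and 4. There the groups overlapped, and the difference was 27.8 points with an exact p of 0.2. Myelin removal and the live-cell sort can set such shares, and the cells were named in 3 separate tables, 1 per group.

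The strain comparison set nmSC of NOD control nerve against nmSC of C57BL/6 nerve, 2 against 3 samples, with edgeR's quasi-likelihood test and Benjamini-Hochberg adjustment. Apoe and the transcription factor genes Cebpb and Jund were higher in NOD control nmSC, while Rps18 was lower and its near-identical copies were higher. Of 7691 genes tested, 175 passed an adjusted p of 0.05, which is 2.28%, with 106 higher (1.38%) and 69 lower (0.897%). The count fell to 48 when C57BL/6 sample 3, with 1156 of 1430 C57BL/6 nmSC cells, was left out, and it was 33 with 77 cells from every sample. Cell names came from 1 table per group, median UMIs per nmSC cell were 588, 1430 and 1146 in C57BL/6 samples 1, 3 and 4, and the part of these differences in the results was not tested.

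Apoe was at 13767 and 9460 CPM in NOD control nmSC, against 1064, 692 and 476 CPM in C57BL/6 nmSC. Each NOD control sample was far above each C57BL/6 sample, and the log2 fold change was 3.82 ± 0.47 (SE), with an adjusted p of 4.51e-05. Apoe was also higher in NOD control fibro, at 9698 CPM against 1264 CPM in C57BL/6 fibro, pooled, but not in mySC, at 7576 CPM against 11145 CPM. B cells, which should lack it, were at 1027 CPM in NOD control and 405 CPM in C57BL/6. Cebpb, a bZIP factor of inflammatory and adipogenic gene control, was at 234 and 365 CPM, against 0, 27.0 and 11.3 CPM in C57BL/6 (log2 fold change 3.64 ± 0.44, adjusted p 3.78e-05). Jund, an AP-1 subunit, was at 1429 and 1349 CPM, against 226, 348 and 362 CPM (2.01 ± 0.35, adjusted p 0.00168). Across the other NOD control types, Jund lay between 752 and 1596 CPM, against 130 to 536 CPM in C57BL/6 types other than nmSC, as pooled values with no test. Cebpb lay between 51.9 and 1603 CPM in those NOD control types, against 0 to 104.5 CPM in those C57BL/6 types, so neither rise was particular to nmSC.

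In some other lists 2 or 3 genes passed, beside 2.28% of all genes tested. Of 18 immediate early genes tested Jund and Klf2 rose, of 12 stress genes Cebpb and Hspa1a rose and Mt1 fell, of 10 complement genes C1rb and C4b rose, and of 12 MHC class I genes H2-T23 and H2-Q7 rose. Of 9 epineurial genes Adgrd1 and Ly6c1 rose, and of 7 adhesion genes Pecam1 and Ly6a. Adgrd1 was at 103 and 114 CPM, against 7.55, 15.2 and 0 CPM, and kept its call in every alternative that tested it. In NOD control fibro Adgrd1 was at 111 CPM, pooled. Without C57BL/6 sample 3 the adjusted p was 0.103 for Ly6c1, 0.298 for Pecam1 and 0.313 for Ly6a. Among 14 collagens, 11 basement membrane genes, 13 cholesterol synthesis genes and 8 interferon-induced genes 0 passed, with median log2 fold changes of 0.19, 0.20, 0.40 and -0.14, beside 0.03 over all genes. Klf2, a shear- and stress-responsive factor, was at 474 and 663 CPM, against 60.4, 231 and 56.6 CPM (1.83 ± 0.42, adjusted p 0.0219), and its adjusted p was 0.078 without C57BL/6 sample 1 and 0.128 without sample 4. Mt1, a metallothionein, was at 77.7 and 241 CPM, against 619, 1962 and 317 CPM (-2.82 ± 0.62, adjusted p 0.0155), and 0.196 without C57BL/6 sample 3 and 0.0796 without NOD control sample 1. H2-T23, a nonclassical class I gene, was at 209 and 133 CPM, against 52.8, 18.5 and 34.0 CPM (adjusted p 9.36e-04), and 0.161 without C57BL/6 sample 3. Klf2 and H2-T23 were also higher in NOD control fibro, at 775 and 85.8 CPM pooled, against 296 and 30.2 CPM in C57BL/6 fibro. In B cells they were at 1602 and 341 CPM in NOD control, against 421 and 39.0 CPM in C57BL/6, with no test. C4b was lost without C57BL/6 sample 3 (adjusted p 0.369) or NOD control sample 2 (0.172), Hspa1a without NOD control sample 1 (0.489) or C57BL/6 samples 1, 3 or 4 (0.119, 0.0578 and 0.122), and H2-Q7 without NOD control sample 1 (0.13).

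Mitochondrially encoded genes fell in 6 of 12 tested, beside 0.897% of all genes tested called lower. The median log2 fold change was -2.05 over this list and 0.03 over all genes. For mt-Nd4l the values were 22.6 and 30.9 CPM in NOD control nmSC and 159, 188 and 170 CPM in C57BL/6 nmSC (-2.84, adjusted p 3.78e-05). The share of mitochondrial UMIs in nmSC was 0.637% to 2.45% over NOD control libraries and 1.15% to 3.69% over C57BL/6 libraries. Of the other called genes of this list mt-Nd2, mt-Atp8 and mt-Co2 kept their call in every set of samples, while mt-Nd5 and mt-Nd3 lost it without C57BL/6 sample 3 (0.465 and 0.649), sample 4 (0.136 and 0.135) or NOD control sample 1 (0.407 and 0.143).

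Genes that define nmSC mostly gave no call between strains. Apod was at 36029 and 26534 CPM in NOD control nmSC, against 27295, 31704 and 29952 CPM in C57BL/6 nmSC (-0.05, adjusted p 0.989). Angptl7 was at 2343 and 1392 CPM, against 2491, 4580 and 4598 CPM (-1.18, adjusted p 0.262), and Kcnk2 had an adjusted p of 0.341. Of the 12 genes of the endoneurial list, Apoe and Plxdc1 rose, beside 1.38% of all genes tested called higher and 0.897% called lower. The median log2 fold change was -0.07 over the list and 0.03 over all genes. Plxdc1 was at 320 and 250 CPM, against 83.0, 103 and 113 CPM (1.36, adjusted p 0.0204), and its adjusted p was 0.163 without C57BL/6 sample 3, 0.077 without C57BL/6 sample 4 and 0.23 without NOD control sample 1. Foxs1 was the one of 19 stromal transcription factors past the threshold, at 75.2 and 61.7 CPM, against 294, 178 and 159 CPM (-1.74 ± 0.34, adjusted p 0.00632), and 0.0991 without NOD control sample 2.

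**Figure D3:**
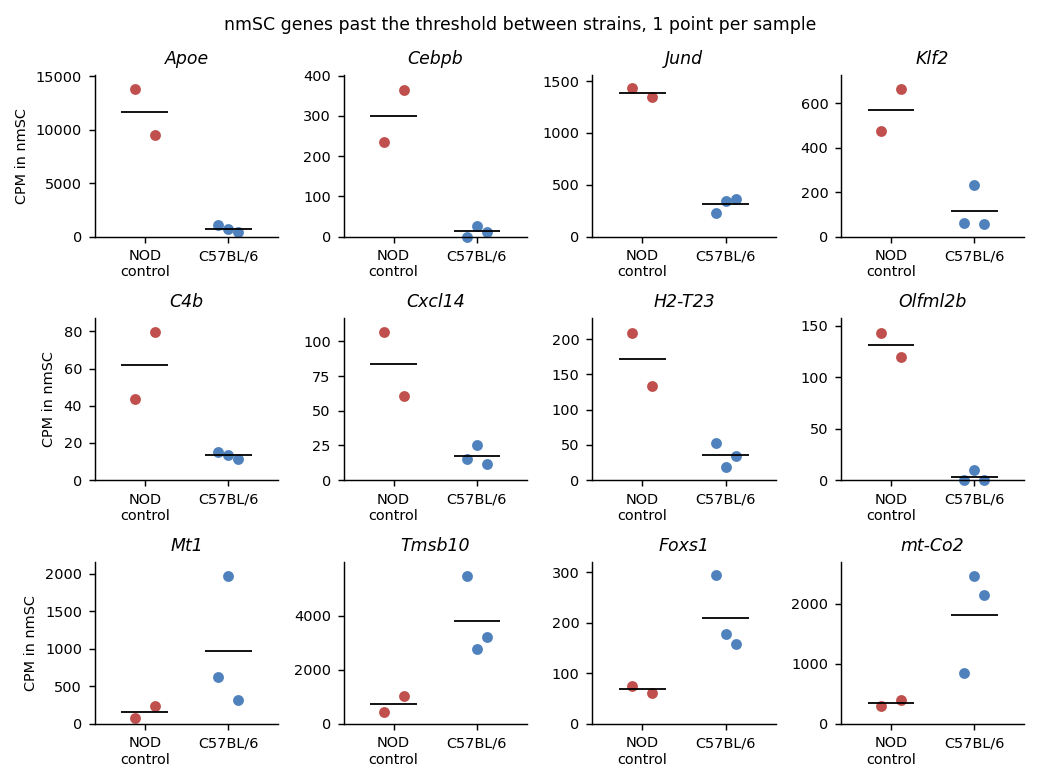
CPM (linear axes from 0) of 12 genes past the threshold in nmSC of 2 NOD control and 3 C57BL/6 samples, 1 point per sample with a line at the mean. The genes were picked after their values were seen, and the groups do not overlap in any panel; Klf2, C4b, Cxcl14, H2-T23, Mt1, Tmsb10 and Foxs1 lost their call when 1 sample was left out.

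The largest strain differences lay in genes with near-identical copies elsewhere in the reference genome. Among the 10 higher and 10 lower genes with the largest fold change, C1rb, C1s2, Gm10260, Gm13305, Gm11361 and Tpm3-rs7 were higher and Rps18, Rps12, Rps27, Rpl27, Rpl10, Rnaset2b and Plac9b lower. How the counting split reads between copies is not given in the sources used here, so the value of each copy alone is uncertain. The 3 pairs below show how little separates a gene and its copy: each stretch is 30 coding bases from GENCODE vM21 transcripts on GRCm38, 5′ to 3′, and the capital marks the base that differs. Rps18 lies at chr17:33951999-33956001 (minus strand) and Gm10260 at chr13:97760072-97760632 (minus), C1ra at chr6:124512405-124523443 (plus) and C1rb at chr6:124570294-124581171 (plus), Il11ra1 at chr4:41699989-41769474 (plus) and Gm13305 at chr4:42158842-42168603 (minus).
Rps18: ctggccgcaggggccGaactgtgggtgtat
Gm10260: ctggccgcaggggccAaactgtgggtgtat
C1ra: cagaaatcgtgatatTtgggtggctacggg
C1rb: cagaaatcgtgatatCtgggtggctacggg
Il11ra1: acggagtgggaaggaTggaccgcaaaaacc
Gm13305: acggagtgggaaggaAggaccgcaaaaacc

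Over the aligned transcripts Rps18 and Gm10260 were identical at 99.08% of 545 bases, C1ra and C1rb at 98.02% of 2428 and Il11ra1 and Gm13305 at 98.87% of 1953. Rps18, a ribosomal protein gene, was at 51.4 and 45.8 CPM in NOD control nmSC, against 2642, 1512 and 1416 CPM in C57BL/6 nmSC. Gm10260 was at 1033 and 1054 CPM, against 15.1, 1.69 and 0 CPM. With Gm11361 added, the sum of the 3 averaged 1433 CPM in NOD control and 1888 CPM in C57BL/6, so the sum differed far less than its parts. The sum of Il11ra1, the interleukin 11 receptor gene, and Gm13305 averaged 342 CPM in NOD control and 323 CPM in C57BL/6. Gm13305 alone had 538 UMIs against 3, a ratio of rates of 199.1 with a counting interval of 67.8 to 968.6. C1rb, a complement protease gene, was at 196 and 176 CPM in NOD control and 0 in C57BL/6, at least 123.2-fold higher against a floor of 3 counts over the group. C1s2 was at least 62.2-fold higher by the same floor, and C1s1 and C1s2 together averaged 464 CPM in NOD control and 443 CPM in C57BL/6. The sum of C1ra and C1rb averaged 396 CPM in NOD control, above 185 CPM in C57BL/6.

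Other sums stayed lower in NOD control nmSC. Rps27 with Rps27rt averaged 674 CPM in NOD control and 3824 CPM in C57BL/6, Rpl10 with Rpl10-ps3 627 CPM and 2075 CPM, and Rps12 with Rps12-ps3 82.1 CPM and 605 CPM. Pttg1, the securin gene, and Pam16, a mitochondrial import gene, were lower without a copy examined here. Pttg1 was at 2.51 and 4.98 CPM, against 219, 147 and 159 CPM (-5.54 ± 0.46, adjusted p 3.99e-07). The 4 other higher genes rested on fewer samples: Gm26825 had an adjusted p of 0.0709 and Vmn1r13 of 0.319 without C57BL/6 sample 3, and Elk3 and Grip2 had 0.291 and 0.547 without that sample and 0.47 and 0.538 without NOD control sample 1. Elk3 was at 319.7 and 30.9 CPM and Grip2 at 95.3 and 21.9 CPM in NOD control samples 1 and 2.

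**Figure D4:**
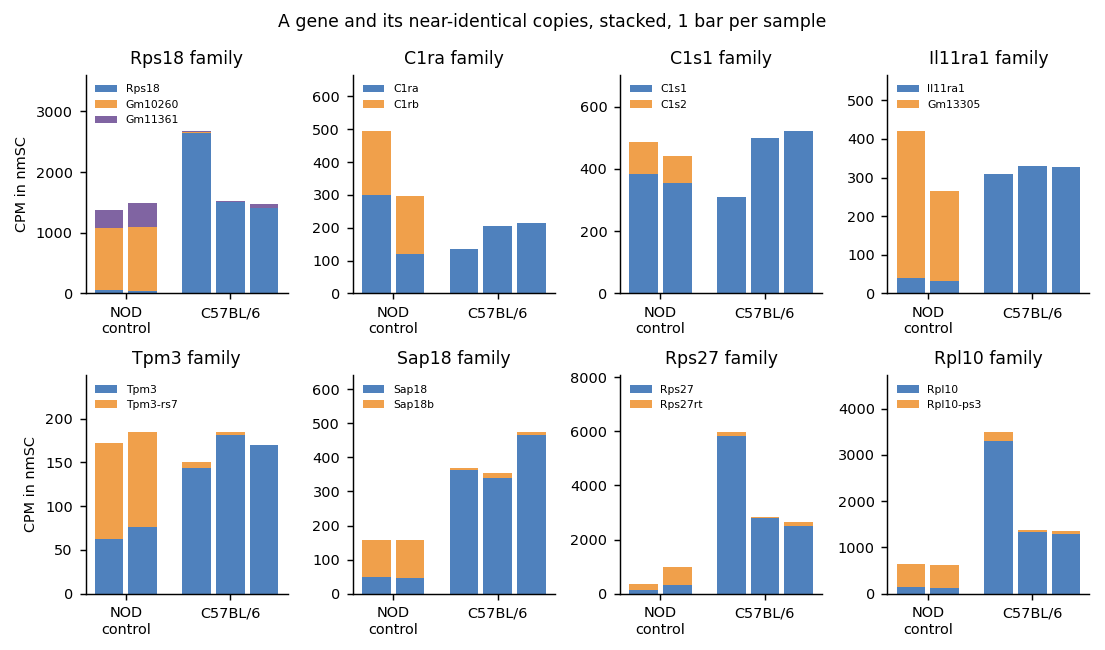
Stacked CPM (linear axes from 0) of 8 genes and their near-identical copies in nmSC, 1 bar per sample, with NOD control samples left of C57BL/6 samples. The copy takes most of the stack in NOD control and little of it in C57BL/6 for the Rps18, Il11ra1, Tpm3, Sap18 and Rpl10 families, while C1ra and C1s1 stay the larger part in most bars; the total is alike in both strains for Tpm3, C1s1 and Il11ra1.

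A test of the strain difference in nmSC minus that in fibro, added after the data were seen, used both types of every sample with the sample as a block in edgeR. It passed 44 of 5888 genes (0.747%), 26 positive and 18 negative, and 21 without C57BL/6 sample 3 or 29 without NOD control sample 2. Olfml2b, a matrix olfactomedin gene, was at 143 and 119 CPM in NOD control nmSC and 0, 10.1 and 0 CPM in C57BL/6 nmSC, while fibro were at 242 and 227 CPM in NOD control and 159, 248 and 206 CPM in C57BL/6. The difference of log2 fold changes was 3.90 ± 0.41, with an adjusted p of 4.65e-12. Ctsk, the collagen-cutting protease cathepsin K, was at 321 and 204 CPM in NOD control nmSC and 204, 198 and 226 CPM in C57BL/6 nmSC. In fibro Ctsk was at 68.2 and 65.6 CPM in NOD control and 156, 257 and 308 CPM in C57BL/6, and the difference was 2.19 (adjusted p 1.66e-06). Apod in B cells, which should lack it, was at 852 CPM in NOD control and 117 CPM in C57BL/6, pooled. The part of such background in fibro was not tested. In the test Apod differed by -1.60 (adjusted p 4.52e-06), with fibro at 1921 and 3032 CPM in NOD control and 538, 923 and 732 CPM in C57BL/6. Without NOD control sample 2 its adjusted p was 0.0719.

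**Figure D5:**
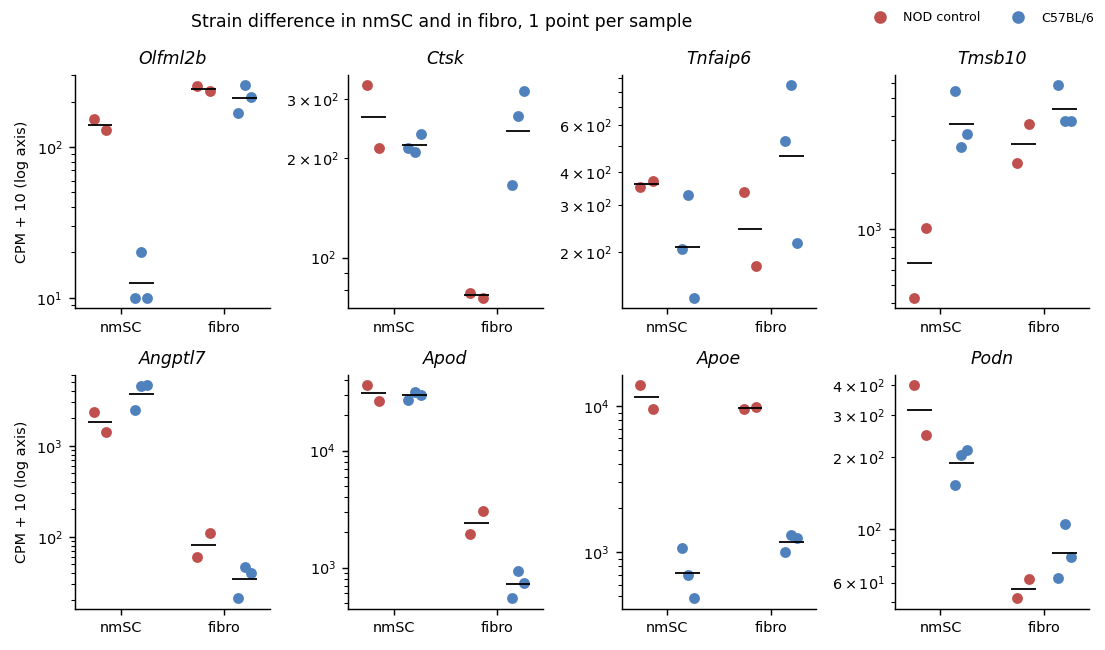
CPM plus 10 (log axis) of 8 genes in nmSC and fibro, 1 point per sample with a line at the geometric mean, with NOD control left of C57BL/6 in each type. Olfml2b differs between strains in nmSC and not in fibro, Ctsk in fibro and not in nmSC, and Apoe is higher in NOD control in both.

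The last comparison set nmSC of the libraries labelled Icam1 knockout, with 49, 84 and 54 cells, against NOD control nmSC. Icam1, an adhesion molecule for leukocytes, was at 111, 149 and 148 CPM in the libraries labelled knockout, against 46.4 and 22.9 CPM in NOD control nmSC. It was thus higher where the label says it is deleted (1.97 ± 0.44, adjusted p 0.0298 by edgeR's quasi-likelihood test), and the 3′ tags do not check which part of the gene is deleted. The Icam1 call was lost without knockout-label library 1, 2 or 3, with values given below. Of 2101 genes 82 passed (3.9%), with 50 higher (2.38%) and 32 lower (1.52%). The count fell to 9, 9 and 17 without the knockout-label libraries 1, 2 and 3, and it was 243 and 348 without NOD control samples 1 and 2. Without cells that had at least 2 UMIs of another type's list it was 24.

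The 5 genes that the naming rule gives as higher were Ccl5, Nkg7, Gm20594, Rgs1 and Ms4a4b. Ccl5, a T cell chemokine, was at 638, 613 and 796 CPM, against 3.76 and 24.9 CPM in NOD control nmSC (5.43 ± 0.45, adjusted p 5.24e-05), and Nkg7, a cytotoxic granule gene, at 142, 215 and 189 CPM, against 1.25 and 9.96 CPM (4.84 ± 0.61, adjusted p 0.00151). Gm20594 lost its call without NOD control sample 1 (adjusted p 0.155), Rgs1 without that sample (0.202) or knockout-label library 2 (0.118), and Ms4a4b without knockout-label libraries 1 (0.0737) or 2 (0.107). Of the 7 T cell list genes 1 was tested and 0 passed. The 7 genes summed to 334 to 499 CPM in nmSC of the libraries labelled knockout and to 5.01 to 90.6 CPM over NOD control libraries. The part of T cell RNA in these results was not tested.

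Some collagen, basement membrane and cholesterol genes were lower, beside 1.52% of all genes tested. Of 13 collagens Col6a1, Col6a2, Col1a1, Col5a1 and Col26a1 fell (median log2 fold change -0.82, beside 0.02 over all genes), of 8 basement membrane genes Hspg2, Sparc, Col4a1, Lama2 and Nid1 fell (-1.09) and of 8 cholesterol synthesis genes Fdps and Fdft1 fell. Of 7 small leucine-rich proteoglycans and 6 metalloproteinases and inhibitors 0 passed, and of 9 elastic fibre and matricellular genes Efemp1 rose and Tnxb fell. Fdps, farnesyl diphosphate synthase, was at 40.5, 99.5 and 94.4 CPM, against 350 and 366 CPM in NOD control nmSC (-2.22 ± 0.30, adjusted p 0.00294). Fdft1, squalene synthase, had adjusted p of 0.315, 0.1 and 0.172 without knockout-label libraries 1, 2 and 3. Efemp1 had 0.307, 0.199 and 0.134 and Tnxb 0.3, 0.242 and 0.134 without them. Sparc was at 2694, 2279 and 1686 CPM, against 8503 and 5071 CPM (-1.63, adjusted p 0.0065), and Col1a1 at 2704, 2254 and 1996 CPM, against 5241 and 5185 CPM (-1.19, adjusted p 0.0112). Each of the 10 collagen and basement membrane genes lost its call without knockout-label library 1 and without library 2, and 8 of them without library 3, with adjusted p of 0.0707, 0.115 and 0.0611 for Sparc and 0.0806, 0.148 and 0.122 for Col1a1 without libraries 1, 2 and 3.

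Of the markers, Angptl7 was at 4679, 4425 and 3952 CPM, against 2343 and 1392 CPM in NOD control nmSC (1.20 ± 0.25, adjusted p 0.0261), and 0.295, 0.199 and 0.1 without knockout-label libraries 1, 2 and 3. Apoe had an adjusted p of 0.162, Kcnk2 0.204 and Apod 0.741. Icam1 had adjusted p of 0.163, 0.199 and 0.0896 without knockout-label libraries 1, 2 and 3. Of the genes the naming rule gives, Ccl5, Nkg7 and Fdps kept their call in every alternative that tested them.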

How the data were processed

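Per the labels, nerve cells were sorted live and sequenced with 10x 3′ chemistry on 2 sequencers, not stated by library. UMI counts, as deposited by the authors, cover 31053 genes and 16050 mouse barcodes, beside cell names and group codes. Alignment used Cell Ranger 3.0.2 and build mm10, per the submitters' processing notes. The sources used here do not give the annotation release, the clustering, or any step against doublets or free RNA, and no such step was added.

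Counts of nmSC were summed per sample (Python 3.11.15, numpy 2.4.6, scipy 1.17.1, pandas 2.3.3), joining NOD control libraries 2-1 and 2-2. CPM are UMIs of a gene per 1e+06 UMIs of the cell set. The gene test was edgeR 4.0.16 under R 4.3.3 (TMM scaling, minimum count 10, quasi-likelihood, Benjamini-Hochberg, threshold 0.05), with DESeq2 1.42.0 as an alternative. The scripts were tested on simulated data. Symbols on more than 1 gene, 35 in all, were kept apart by identifier, and gene positions come from GENCODE vM21. Differences between nmSC and other NOD control types are descriptions without a test.

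The cells, markers and gene lists were chosen with earlier results of these data known. The naming rule took the 4 markers, the 20 leading genes by ratio, the 10 higher and 10 lower strain genes (5 and 5 for the knockout label) with separated samples and mean log2 CPM of at least 5, up to 4 members of each list and the 10 most variable genes between cells. Genes outside it, among them Olfml2b, Tmsb10, Ctsk, Tnfaip6, Klf2, Mt1, C4b, Cxcl14, Foxs1, mt-Nd4l, Icam1 and other members named for a list's count, were chosen after their values were seen. Not every gene given by this rule is reported here.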

Additional observations from a re-analysis of the deposited data

Results flagged for a closer look

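The strain difference in nmSC differed from that in fibro, by edgeR's quasi-likelihood test of the difference itself with Benjamini-Hochberg adjustment, for 10 genes, which are the 5 with the smallest adjusted p and the others past the threshold that are named above. The difference of log2 fold changes, nmSC minus fibro, was 3.90 for Olfml2b, 2.19 for Ctsk, 1.95 for Tnfaip6, 1.50 for Podn, 1.08 for Fos and 1.02 for Apoe, and -1.76 for Tmsb10, -1.21 for Il33, -2.59 for Angptl7 and -1.60 for Apod. Tmsb10, an actin-binding thymosin, was at 417 and 1006 CPM in NOD control nmSC and 5458, 2745 and 3193 CPM in C57BL/6 nmSC, while fibro were at 2232 and 3620 CPM in NOD control and 5854, 3767 and 3761 CPM in C57BL/6. Angptl7 in fibro was at 49.3 and 101 CPM in NOD control and 11.1, 36.7 and 30.2 CPM in C57BL/6. Its pooled level in B cells was 37.0 CPM in NOD control and 15.6 CPM in C57BL/6, and it was at 70.3 CPM in NOD control MC. The part of background in the fibro values of Apod and Angptl7 was not tested. Olfml2b, Tmsb10, Ctsk and Tnfaip6 kept their call when any 1 sample was left out. Angptl7 lost it without NOD control sample 2 (adjusted p 0.418), as did Apod (0.0719) and Fos (0.977), and Fos also without C57BL/6 sample 4 (0.069). Il33 lost it without C57BL/6 sample 3 (0.137) or NOD control sample 2 (0.655). Podn lost it without C57BL/6 sample 3 (0.514) or NOD control sample 1 (0.684), and Apoe without C57BL/6 samples 3 or 4 (0.154 and 0.49) or NOD control sample 1 (0.599).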

How the results depend on the processing

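No result changed direction under the alternatives run. The strain count of 175 genes was 83 by DESeq2, 286 without a filter on low counts, 33 with equal cells per sample and 48 to 174 with 1 sample left out. Of the 26 strain genes with a call that the naming rule gives, 19 kept it in every alternative that tested them, as did 4 of the 21 chosen after their values were seen. The knockout-label count of 82 was 53 by DESeq2, 175 without the filter, 28 with equal cells, 24 without cells holding another type's UMIs and 9 to 348 with 1 sample left out. Of 23 genes of the rule 3 kept their call throughout, as did 1 of 14 chosen later. With the replicate number as a block the count was 56. Whether same-numbered samples belong together is not known. The difference of sample 1 minus sample 2 in the knockout-label libraries and in NOD control had r = 0.062 across 2101 genes. That is 1 correlation over genes that are not independent replicates, so it cannot decide the question. The count of 44 genes in nmSC against fibro ranged from 21 to 50 with 1 sample left out. The difference in nmSC share ranged from 14.9 to 45.0 points. A term for library 1 of both strains, and NOD control sample 2 held by 1 library, were chosen after seeing the data and gave 141, 122 and 151 genes. Other scalings moved the median of all genes by at most 0.015 (log2). Few nmSC cells in C57BL/6 sample 4 and in the libraries labelled Icam1 knockout limit what could be called.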
